A study of Saccharomyces cerevisiae with 67 samples.

Results

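The 10 genes described encode histones of budding yeast, without CSE4, the gene of the centromeric H3. They are HTA1 and HTA2 (histone H2A), HTB1 and HTB2 (H2B), HHT1 and HHT2 (H3), HHF1 and HHF2 (H4), HTZ1 (the H2A variant H2A.Z) and HHO1 (the linker histone H1). They were taken by symbol from the annotation of the sacCer3 genome, and all 10 were found among its 6002 nuclear protein-coding genes. No measured value entered this rule, though the members were chosen with earlier results of these data known.

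The study grew BY4741, a laboratory strain of Saccharomyces cerevisiae, as wild type (WT) or carrying a deletion of MIP6, a gene for an RNA-binding protein (mip6Δ, written mip6D in the labels), in rich medium (YPD). The unstressed control at 30 °C and the heat shocks at 39 °C, lasting 20 or 120 minutes, were portions of 1 exponentially growing culture, so the 3 time points of a replicate share their starting cells. Chromatin was immunoprecipitated with an antibody to histone H4 acetylated on lysine 12 (H4K12ac). The samples used here hold 19 H4K12ac libraries, and whether the consensus list rests on exactly these is not given in the sources used here. In WT they are 3 at 30 °C, 1 at 20 minutes and 4 at 120 minutes, and in mip6Δ they are 4, 3 and 4. All values below were read from the deposited consensus list, in which overlapping H4K12ac peaks of the different samples are joined. It holds 1970 regions on 16 chromosomes, covers 61.8% of the nuclear genome, and gives a start and an end for each region and nothing else. It carries no depth, signal or replicate, so no strain or time point can be compared within it, no error can be attached to a position, and no test was made. Values for all genes stand beside those of the histone genes as a description. RNA-seq and total H4 values were not analysed here.

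DNA in the nucleus is wrapped around octamers of H2A, H2B, H3 and H4. Yeast keeps a pair of genes for each of these core histones, arranged as divergent pairs in which an H2A gene faces an H2B gene, or an H3 gene an H4 gene, across a shared promoter. The genes are transcribed around S phase, when new chromatin is made. The protein Spt10 binds upstream activating sequences in these promoters, and the HIR complex represses all of the pairs except HTA2-HTB2. H2A.Z replaces H2A in the nucleosomes beside many promoters, where the SWR1 complex puts it, and H1 binds the linker DNA between nucleosomes. H4K12ac is an acetyl mark on the tail of H4 that is found at active promoters.

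The antigen of the experiment is itself a product of HHF1 and HHF2. The first 60 bases of both coding sequences are shown because they encode the tail with the measured lysine, whose codon is in capitals. Both were read from the reference genome, HHF1 from chrII:255625-255684 on the minus strand and HHF2 from chrXIV:576727-576786 on the plus strand.
HHF1: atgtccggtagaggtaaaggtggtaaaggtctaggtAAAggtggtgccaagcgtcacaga
HHF2: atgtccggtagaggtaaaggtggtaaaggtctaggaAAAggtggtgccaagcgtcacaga
Lysine 12 of the mature protein is codon 13 when the first methionine is counted, and covers bases 37 to 39 of the coding sequence. In this stretch the genes differ by 1 substitution, T36A from HHF1 to HHF2 with positions counted from the first base of the start codon. The lysine codon is identical, and over all 103 residues the 2 genes encode the same protein. The antibody therefore cannot separate H4 made from HHF1 from H4 made from HHF2.

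The shared promoters of the core histone pairs are shown next, because the regions were read against them. Each line gives 200 bases from the middle part of the interval between the start codons, on the plus strand of the reference genome (sacCer3). Capitals mark matches to TTCCNNNNNNTTCNC, the sequence bound by Spt10, on either strand. The windows are chrIV:915033-915232, chrII:236016-236215, chrII:255852-256051 and chrXIV:576254-576453, in the order of the lines, and all bases of each lie inside a consensus H4K12ac region.
HTB1-HTA1: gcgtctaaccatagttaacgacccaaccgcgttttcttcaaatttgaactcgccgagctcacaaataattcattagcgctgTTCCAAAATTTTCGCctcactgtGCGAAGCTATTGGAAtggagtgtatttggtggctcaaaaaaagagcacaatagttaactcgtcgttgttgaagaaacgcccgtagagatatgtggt
HTA2-HTB2: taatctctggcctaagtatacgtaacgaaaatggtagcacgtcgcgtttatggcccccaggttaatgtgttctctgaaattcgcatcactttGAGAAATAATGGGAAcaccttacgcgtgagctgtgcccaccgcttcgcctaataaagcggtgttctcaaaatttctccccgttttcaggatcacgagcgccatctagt
HHF1-HHT1: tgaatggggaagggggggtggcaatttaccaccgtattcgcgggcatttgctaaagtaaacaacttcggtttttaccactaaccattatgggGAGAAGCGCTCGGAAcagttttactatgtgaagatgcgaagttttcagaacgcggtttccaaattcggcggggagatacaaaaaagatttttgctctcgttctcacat
HHT2-HHF2: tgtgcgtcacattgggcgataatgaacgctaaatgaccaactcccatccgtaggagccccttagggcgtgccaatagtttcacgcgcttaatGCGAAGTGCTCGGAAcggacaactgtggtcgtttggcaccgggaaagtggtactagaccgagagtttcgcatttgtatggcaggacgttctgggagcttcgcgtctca

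All 10 histone genes had their start inside a consensus H4K12ac region. The gene start was taken as the first base of the coding sequence, because the annotation holds no untranslated leader, so transcription begins somewhat further upstream. Among all genes, 5396 of 6002 starts lay in a region (89.9%), and the count for the histone genes is read against that share. Every base within 100 bp on either side of each histone gene start was also inside. Of all genes, 89.6% were inside at 100 bp upstream and 90.1% at 100 bp downstream. The share of all genes with every base of this window inside is not given here. The 10 starts fell into 6 regions, since the partners of each core pair shared a region and HTZ1 and HHO1 each lay in a region of their own.

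The regions ran past the starts into the genes and beyond. All 10 histone genes were covered from start to end, against 55.0% of all genes. Histone genes are short, from 312 bp (HHF1 and HHF2) to 777 bp (HHO1), and a short gene is more easily covered. Among the 1464 genes of 300 to 800 bp, 1286 were covered whole (87.8%), which is the closer background. All bases up to 1000 bp on both sides of the start were inside a region for 10 of 10 histone genes, for 45.5% of all genes and for 59.2% of genes of 300 to 800 bp. Position by position, all 10 histone genes were inside from 1000 bp upstream to 1000 bp downstream. The share of all genes was 78.7% at 1000 bp upstream, 89.9% at the start, 85.6% at 600 bp downstream and 59.8% at 1000 bp downstream. The last position lies past the end of every histone gene, while the median length of all genes was 1200 bp. No profile by position was made for genes of 300 to 800 bp. The core pairs share regions, so these 10 genes stand for 6 regions and not for 10 separate ones.

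**Figure D1:**
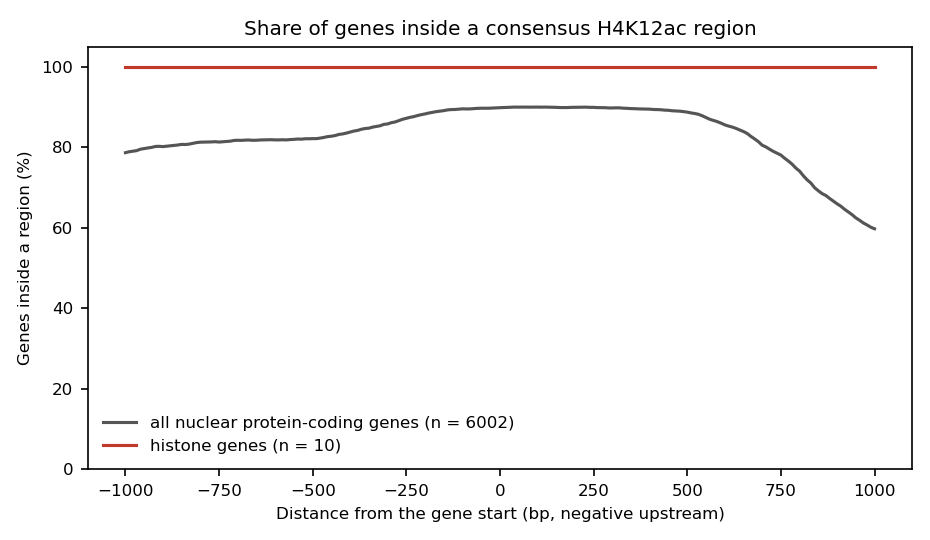
Share of genes (%, vertical axis) whose position at a given distance from the gene start (bp, horizontal axis, negative upstream) lies inside a consensus H4K12ac region. The red line, for the 10 histone genes, stays at 100% throughout, and the grey line, for all 6002 nuclear protein-coding genes, lies at 89.9% at the start and falls to 59.8% at 1000 bp downstream. The lines are not matched for gene length.

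The shared promoters were covered as well as the genes. The interval between the start codons was inside a region over its whole length for 4 of 4 core pairs, as for 1273 of all 1527 divergent intervals (83.4%). The interval and both of its genes were covered whole for 4 of 4 core pairs and for 32.3% of divergent intervals. Of the 111 divergent intervals between 2 genes of 300 to 800 bp, 89 had both genes and the interval covered whole (80.2%). Against pairs of short genes, then, the core pairs lie close to the background. The intervals measured 817 bp (HTB1-HTA1), 699 bp (HTA2-HTB2), 676 bp (HHT2-HHF2) and 646 bp (HHF1-HHT1), while the median divergent interval was 511 bp with quartiles of 286.5 and 802.5 bp. HTZ1 and HHO1 also face a divergent neighbour, PLB3 (a phospholipase B) across 1365 bp and NAN1 (a component of the machinery that processes ribosomal RNA) across 605 bp, and both of these intervals were covered whole.

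**Figure D2:**
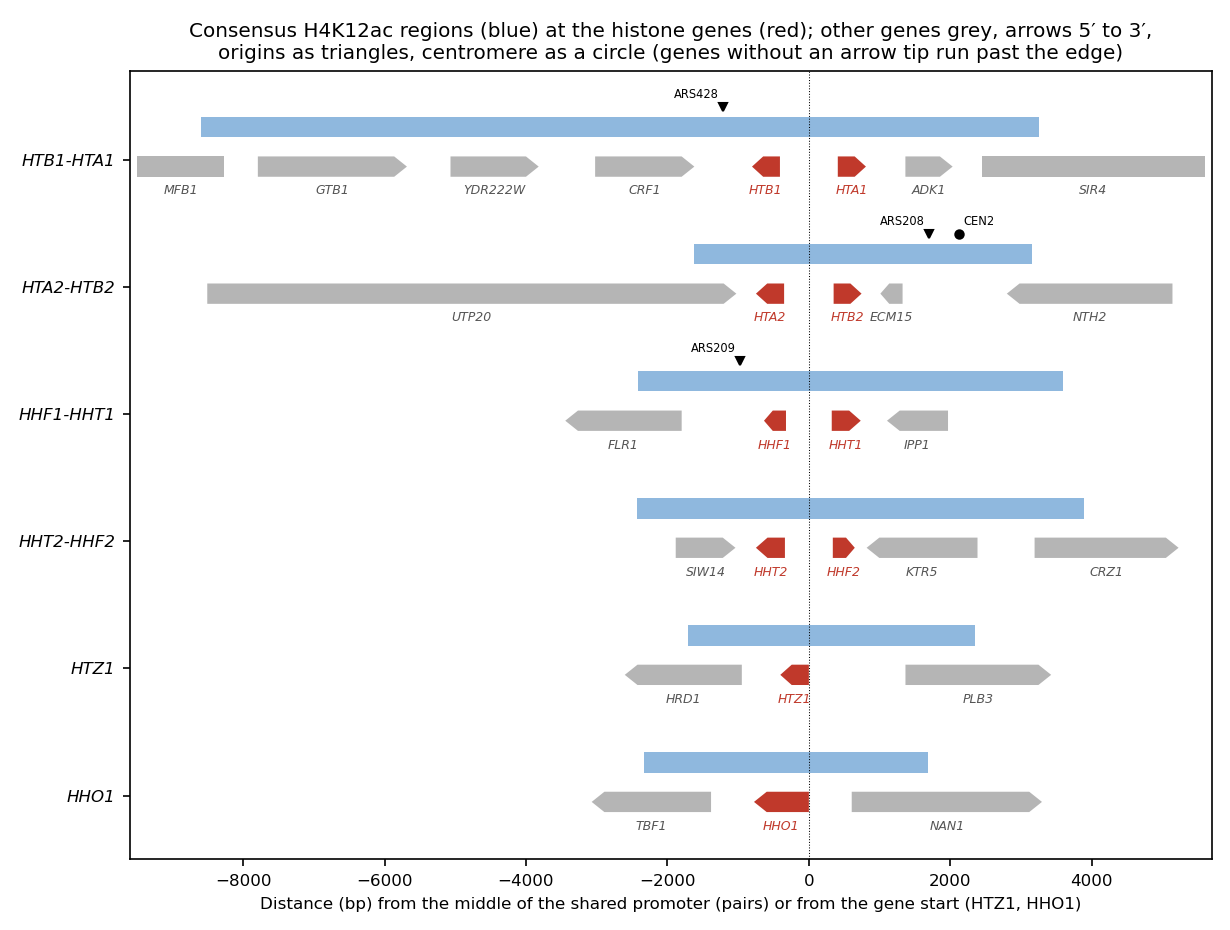
Map of the 6 loci, with distance in bp from the middle of the shared promoter or, for HTZ1 and HHO1, from the gene start. Blue bars are consensus H4K12ac regions, red arrows histone genes, grey arrows other genes, triangles replication origins and the circle the centromere of chromosome II. The region at HTB1-HTA1 spans 11853 bp and those at the other loci 4018 to 6311 bp.

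HTA1 and HTB1 encode H2A and H2B and lay in the longest of the 6 regions. HTA1 (YDR225W, chrIV:915530-915928, plus strand) and HTB1 (YDR224C, chrIV:914317-914712, minus strand) lay in the region chrIV:906524-918376. Its length of 11853 bp ranked 46 among the 1970 regions, and 97.7% of regions were no longer. The region was lopsided. From the middle of the shared promoter it reached 8597 bp to the left, past HTB1, and 3255 bp to the right, past HTA1. It held 8 gene starts, those of MFB1, GTB1, YDR222W, CRF1, HTB1, HTA1, ADK1 and SIR4. CRF1 (a corepressor of ribosomal protein genes), GTB1 (a glucosidase subunit of the endoplasmic reticulum), YDR222W and ADK1 (adenylate kinase) were covered whole. The outermost genes were covered only in part, MFB1 (a mitochondrial F-box protein) over 23.5% and SIR4 (a silencing protein) over 19.8% of their length. The left edge lay 329 bp inside MFB1 and the right edge 806 bp inside SIR4, counted from their starts.

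HTA2 and HTB2 encode the second copies of H2A and H2B. HTA2 (YBL003C, chrII:235394-235792, minus strand) and HTB2 (YBL002W, chrII:236492-236887, plus strand) lay in chrII:234522-239293, a region of 4772 bp that ranked 509. Some 74.2% of regions were no longer. It reached 1620 bp to the left of the middle of the promoter and 3151 bp to the right. It held 3 gene starts, those of HTA2, HTB2 and ECM15, and overlapped 5 genes. The left edge fell in the 3′ part of UTP20, a long gene of ribosome assembly of which 7.97% lay in this region, at 6887 bp from that gene's start. At the right edge, 15.1% of NTH2, which encodes a putative trehalase, lay in this region. The distance of 1270 bp from the start of HTA2 to this left edge was the shortest from any histone gene start to an edge.

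The copies of the H2A and H2B genes thus all lay inside a region with their starts, genes and promoters, and differed in the size of that region. The list holds no signal, so the level of the mark at each copy is not known. The HTA1-HTB1 region was 2.48 times as long as the HTA2-HTB2 region. No replicate stands behind either edge, so the difference has no error and was not tested. HTA1 and HTA2 differ at 25 of 399 bases and 2 of 132 residues, and HTB1 and HTB2 at 48 of 396 bases and 4 of 131 residues. Reads of 50 bp can fall on both copies where they are identical. Of the 50-mers of HTA1, 16 of 350 (4.57%) also occur in HTA2, and 0 of 347 of HTB1 occur in HTB2, so nearly every 50-mer of these genes has a single place in the genome.

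HHT1 and HHF1 encode H3 and H4. HHT1 (YBR010W, chrII:256331-256741, plus strand) and HHF1 (YBR009C, chrII:255373-255684, minus strand) lay in chrII:253592-259594, 6003 bp long and ranked 335. From the middle of the promoter it reached 2415.5 bp to the left and 3586.5 bp to the right. The 4 gene starts inside were those of FLR1 (a multidrug transporter of the plasma membrane), HHF1, HHT1 and IPP1 (inorganic pyrophosphatase). IPP1 was covered whole, and 37.5% of FLR1 lay in this region. The left edge lay 618 bp inside FLR1. The right edge fell 17 bp into a Ty1 retrotransposon, a mobile element of 5917 bp, and a separate Ty1 long terminal repeat of 307 bp lay wholly inside the region.

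HHT2 and HHF2 encode the same 2 proteins. HHT2 (YNL031C, chrXIV:575640-576050, minus strand) and HHF2 (YNL030W, chrXIV:576727-577038, plus strand) lay in chrXIV:573965-580275, 6311 bp long and ranked 309. The region reached 2423.5 bp to the left of the middle of the promoter and 3886.5 bp to the right. It held 5 gene starts, those of SIW14 (a phosphatase of inositol pyrophosphates), HHT2, HHF2, KTR5 (a mannosyltransferase) and CRZ1 (the transcription factor activated by calcineurin). SIW14 and KTR5 were covered whole, and 34.2% of CRZ1 lay in this region. The left edge fell between YNL033W and SIW14, and the right edge 696 bp inside CRZ1.

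The 2 regions of the H3 and H4 genes were alike in size, with a ratio of 1.05, and differed in where the genes lay in them. The upstream edge was 2739 bp from the start of HHT1 and 4225 bp from that of HHT2, and the downstream edge 3263 and 2085 bp. For HHF1 and HHF2 the upstream edge lay at 3910 and 2762 bp and the downstream edge at 2092 and 3548 bp. HHF1 and HHF2 differ at 8 of 312 bases, and HHT1 and HHT2 at 28 of 411 bases, with no residue changed in either protein. Of the 50-mers of HHF1, 56 of 263 (21.3%) also occur in HHF2, and 44 of 362 (12.2%) of those of HHT1 occur in HHT2. Within these stretches a 50 bp read cannot be assigned to its copy, and how such reads were treated is not given in the sources used here. The shared promoters of all 4 core pairs hold 0 repeated 50-mers, so every 50 bp stretch there has a single place in the genome.

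HTZ1 (YOL012C, chrXV:303579-303983, minus strand) encodes H2A.Z, which shares 80 of 127 aligned residues (63.0%) with the H2A of either copy. It has no second copy in the genome, and none of its 50-mers is repeated. Its region, chrXV:302272-306335, was 4064 bp long, ranked 663, and held the starts of HRD1 (a ubiquitin ligase of the endoplasmic reticulum), HTZ1 and PLB3. The region ran 2352 bp upstream and 1711 bp downstream of the HTZ1 start. It took in 46.1% of HRD1 and 47.9% of PLB3.

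HHO1 (YPL127C, chrXVI:308828-309604, minus strand) encodes histone H1. Its region, chrXVI:307273-311290, was the shortest of the 6 with 4018 bp, ranked 678, and held the starts of TBF1 (a DNA-binding protein with a telobox motif), HHO1 and NAN1. It ran 1686 bp upstream and 2331 bp downstream of the HHO1 start, and 0 of the 728 50-mers of HHO1 are repeated. It took in 56.2% of TBF1 and 40.2% of NAN1. The regions of HTZ1 and HHO1 were shorter than all 4 regions of the core pairs. In both, the histone gene lay between 2 genes that were cut by the region's edges. Both edges of the HTA1-HTB1 and HTA2-HTB2 regions also cut genes, so this does not set HTZ1 and HHO1 apart.

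**Figure D3:**
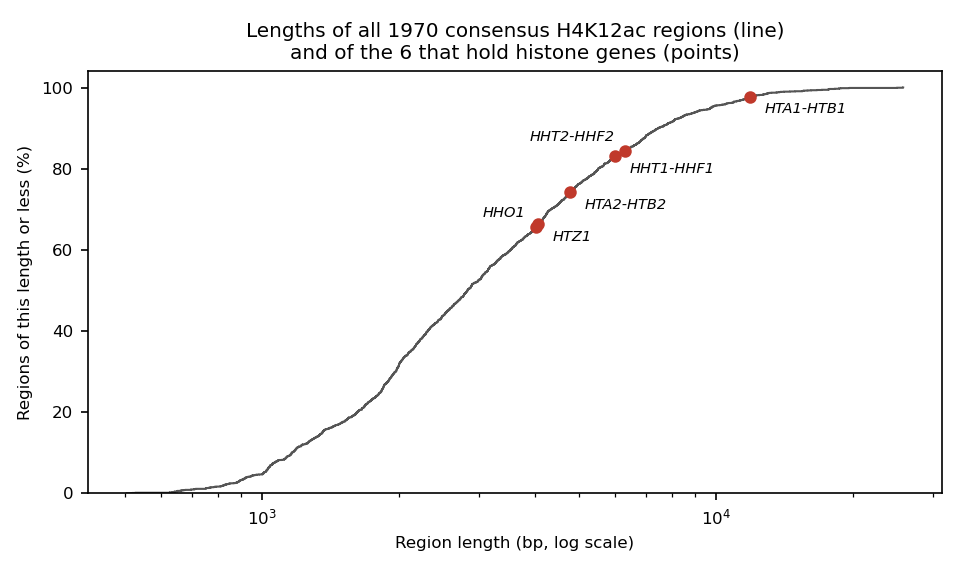
Share of regions (%, vertical axis) that are no longer than a given length (bp, horizontal log axis), for all 1970 consensus H4K12ac regions (line) and for the 6 that hold histone genes (red points). All 6 points lie above the median of 2835 bp, from 4018 bp for HHO1 to 11853 bp for HTA1-HTB1.

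All 6 regions were longer than the median region of 2835 bp (quartiles 1829 and 4851 bp, range 504 to 25822 bp). A long region holds more genes, so a region picked through a gene is longer than a region picked from the list. Counted once per gene, the median length over the 5396 genes with their start in a region was 4818.5 bp, and over genes of 300 to 800 bp it was 5507 bp. The median over the 10 histone genes was 6003 bp, inside the quartiles of 3493 and 8346 bp of the short genes. The regions held 3 to 8 gene starts for the histone genes, with a median of 4, which is also the median over all genes in regions.

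The reach of a region from the gene start varied among the histone genes more in the H2A and H2B genes than in the others. The upstream edge lay 9006 bp from the start of HTA1 and 1970 bp from that of HTB2, and between 1686 bp (HHO1) and 4225 bp (HHT2) in the genes outside the H2A and H2B pairs. The downstream edge lay 8188 bp from the start of HTB1 and 1270 bp from that of HTA2. The upstream distance of HTA1 and the downstream distance of HTB1 run to the same edge, on the left of their region. HTB2 upstream and HTA2 downstream likewise share an edge. The wider spread therefore rests on the HTA1-HTB1 and HTA2-HTB2 regions alone. Over all 10 genes, which lie in 6 regions, the median was 3131.5 bp upstream and 2566 bp downstream, beside 2216 and 1648 bp over all genes. The upper quartile of the upstream distance over all genes was 4223 bp. HTA1 lay far past it, HHT2 at it with 4225 bp, and the other 8 histone genes below it.

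**Figure D4:**
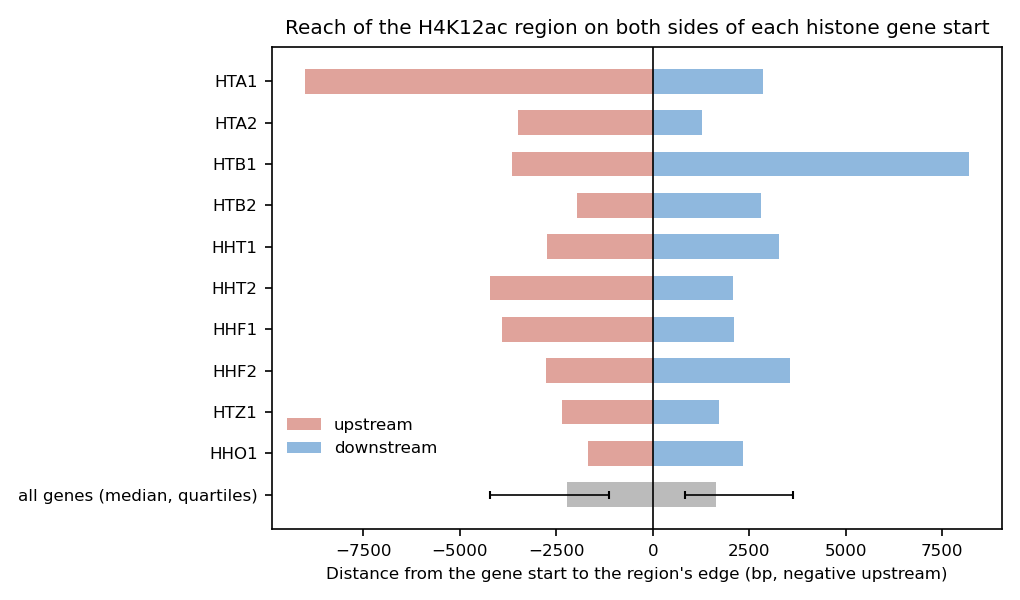
Distance in bp (horizontal axis) from the start of each histone gene to the upstream edge (red, negative) and the downstream edge (blue) of its region. The grey bars give the medians over all genes with their start in a region, 2216 bp upstream and 1648 bp downstream, with quartiles as error bars. HTA1 upstream (9006 bp) and HTB1 downstream (8188 bp) are the longest bars.

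The Spt10 sequence marked in capitals was defined in yeast from the activating sequences of the core histone promoters, so its presence in them is background and no finding of these data. TTCCNNNNNNTTCNC was found on either strand in 4 of 4 core pair intervals, and in 70 of all 1527 divergent intervals (4.58%). Among the 348 divergent intervals of 600 to 900 bp, 30 held it (8.62%). The match read TTCCGAGCGCTTCTC in HHF1-HHT1, TTCCGAGCACTTCGC in HHT2-HHF2 and TTCCCATTATTTCTC in HTA2-HTB2. HTB1-HTA1 held a pair of matches on opposite strands, TTCCAAAATTTTCGC and TTCCAATAGCTTCGC. All lay 260 to 425 bp from the start codons on either side, near the middle of the interval, and so outside the window from 250 bp before to 50 bp after a gene start, in which 0 of the 10 histone genes and 1.48% of all genes held the sequence. Every match was inside a region, which follows from these intervals being covered whole. The sequences searched are strict forms, and a match is not a measured binding site.

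CACGAAA, bound by the cell cycle factor SBF, was found on either strand in 0 of 4 core pair intervals and in 10.0% of divergent intervals. Among divergent intervals of 600 to 900 bp, 10.6% held it. The interval of HTZ1 with PLB3, a long one of 1365 bp, holds it, the nearer match at 186 bp from the start of HTZ1. In the window from 250 bp before to 50 bp after a gene start, 1 of the 10 histone genes (HTZ1) and 4.20% of all genes held it. ACGCGT, bound by MBF, reads the same on both strands. It was found in 1 of 4 core pair intervals, that of HTA2-HTB2, and in 6.81% of divergent intervals (8.33% of those of 600 to 900 bp). Its first base lies 337 bp from the start of HTA2 and it can be read in the printed line as acgcgt. The motifs do not overlap. GC content was 36.8% in HTB1-HTA1, 33.5% in HTA2-HTB2, 37.5% in HHF1-HHT1 and 42.5% in HHT2-HHF2, beside a median of 36.1% (quartiles 33.9 and 38.5) over divergent intervals, so the HHT2-HHF2 promoter lay above the upper quartile.

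Replication origins lay close to 3 of the 4 core pairs, and all of these were inside the same region as the genes. Regions cover 61.8% of the nuclear genome, and the share of all origins inside them was not counted. The position of these origins is therefore not set apart from that of others. ARS428 lay 279 bp from the nearest base of HTB1, ARS209 lay 290 bp from HHF1 and ARS208 lay 900 bp from HTB2. The HTA2-HTB2 region also held the centromere of chromosome II, at 1320 bp from HTB2. An annotated origin lay within 1000 bp of 3 of the 10 histone genes (30%) and of 655 of all 6002 genes (10.9%). These shares are per gene. The share of all divergent pairs with an origin this close was not counted, so the count of 3 of 4 pairs has no background. The nearest origin to HHT2 lay at 7116 bp, to HTZ1 at 5376 bp and to HHO1 at 19123 bp, outside their regions.

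Beyond the edges, the gaps to the next regions were read at the core pairs and at the other 2 genes, after the list was examined. Each core pair had 1 long gap beside it. To the right of HTA1-HTB1 it measured 4417 bp, in the bodies of SIR4 and PCF11 (a factor of mRNA 3′ end formation). To the left of HTA2-HTB2 it measured 6257 bp and lay wholly inside UTP20. To the right of HHT1-HHF1 it measured 5820 bp over the Ty1 element, and to the left of HHT2-HHF2 it measured 4048 bp over YNL033W and YNL034W. These 4 were longer than the median gap of 1617 bp (quartiles 933 and 2655 bp), with 88.4% to 96.4% of gaps no longer. The other 8 gaps beside histone regions measured 672 to 1790 bp. The share of all regions with a gap of 4048 bp or more beside them was not counted. These 4 loci against 2 therefore set no trait of the core pairs.

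Repeated sequence marked 2 of the long gaps and not the others. Of the 50-mers in the gap beside HHT1-HHF1, 92.7% occur more than 1 time in the genome, and in the gap beside HHT2-HHF2 53.8% do. The gaps beside HTA1-HTB1 and HTA2-HTB2 had 0% repeated 50-mers, and each held 0 gene starts. The share of repeated 50-mers over the whole genome is not given here. The part of repeated reads in these edges was not tested, as the reads were not used here.

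The genes that act on histones were read from the same list. All 12 transcription regulators of the histone genes (Spt10, Spt21, the HIR complex and its partners, and the subunits of SBF and MBF) had their start in a region, as did all 9 histone chaperones, all 14 genes of the SWR1 complex, and CSE4 and SCM3, which encode the centromeric H3 and its chaperone. Over all genes, 89.9% had their start in a region and 55.0% were covered whole. Of the regulators, 2 of 12 were covered whole, SPT10 and ASF1 (named after their values were seen), and the median covered share was 42.1%. The median was 100% for the chaperones, with 5 of 9 covered whole, and 88.0% for the SWR1 genes, with 7 of 14. CSE4 and SCM3 were both covered whole. The regulators are also long genes, with a median of 2457 bp against 399 bp for the histone genes and 1200 bp for all genes, and over all genes the median covered share was 100%.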

How the data were processed

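The authors removed adapters from the 50 bp reads (Cutadapt) and aligned them to saccer3 (Bowtie2). Peaks were called by Macs2 in the H4K12ac samples, without the H4 samples, and overlapping peaks were joined over samples by the merge command of bedtools. Versions, the peak threshold and the treatment of reads with several matches are not given in the sources used here. The deposited list holds region positions in bp (no count, signal, score or p-value) pooled over all samples, so the depth behind a region is unknown and no interval applies. Merging keeps a base that any 1 library called, which lengthens regions.

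Region starts were counted from 1. All 6002 protein-coding genes of the nuclear chromosomes were taken from the RefSeq R64 annotation, whose chromosome names match those of the list. A window of 100 bp on each side of the gene start counted as touched from 1 bp. Genes of 300 to 800 bp served as a background for length. Repeated sequence was measured as 50-mers found more than 1 time on either strand. Counting was tested on simulated regions. The genes named were the 10 histone genes, the other genes with a start in their regions, and the genes directly beside them. Other genes at region edges or in the gaps, and some genes of the lists, were named as well. The members, gene lists and alternatives were chosen with earlier results of these data known, and the 1000 bp window, pairs of short genes, gaps and origins were added after the list was examined. Alternatives moved the gene start, the window, the regions kept or joined, the region edges and the set of genes. Python 3.11.15, NumPy 2.4.6, SciPy 1.17.1, Biopython 1.88 and Matplotlib 3.10.9 were used.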

Additional observations from a re-analysis of the deposited data

How the results depend on the processing

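Of 33 counts on the histone genes under another setting, 29 equalled the reported count and 0 differed by over 1.5 times. Most of the settings could not have changed a count, so this tally is no test of the counts. The other 4 all came from leaving out the longest 5% of regions, 99 regions of at least 9721 bp that include the one at HTA1-HTB1. Then 8 of 10 gene starts lay in a region, 8 genes were covered whole, 3 of 4 shared promoters were covered whole and 5 regions held a histone gene start. The shares over all genes and all divergent intervals were not counted without these regions. These 4 counts therefore have no background and cannot be set against the shares over the full list. Shortening regions by 100 or 250 bp or extending them by 100 bp at both ends, joining regions less than 500 bp apart and keeping regions of at least 1000 bp changed none of these counts. Moving the start upstream by 50 or 100 bp left the counts of starts and of regions as they were. These outcomes followed from the positions. Each of the regions is at least 4018 bp long, and each start lies at least 1270 bp from an edge. Joining or extending regions takes no base out of them. The share of all genes with their start in a region was 92.6% for genes more than 30 kb from a chromosome end and 90.9% for genes in a divergent arrangement. No paired analysis was possible because regions are pooled over samples, which also means that none of the libraries could be left out. Without scores, a stricter peak threshold could not be applied.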
